A study of Homo sapiens with 6 samples.

Results

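The aminoacyl-tRNA synthetase transcripts were studied in RNA that came down with the double-stranded RNA-binding protein Stau1 from cells held in prometaphase. They were taken as every target of the array that has a gene symbol and whose deposited definition contains the words tRNA synthetase, which gave 45 of 37879 targets. The rule itself uses no measured values, but it was set with earlier results of these data known. By symbol, 19 of the 45 targets belong to enzymes of the cytosol, 17 to enzymes of mitochondria and 2, GARS and KARS, to enzymes that serve both compartments. The other 7 are outside these classes. They are AIMP2, a scaffold of the multi-synthetase complex, AARSD1, which shares a domain with the alanine enzyme, TARSL2, which resembles the threonine enzyme, and the unnamed entries LOC341112, LOC647337, LOC652435 and LOC654115. The 19 cytosolic targets stand for 18 genes, since FARSLB is an older symbol of FARSB in RefSeq. The definition of VARS names a mitochondrial protein, but the gene was kept with the cytosolic enzymes, where its symbol places it.

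An aminoacyl-tRNA synthetase joins an amino acid to its own tRNA, the step that sets the meaning of the genetic code. Human cells keep a set of enzymes for the cytosol and another, also encoded in the nucleus, for the ribosomes of mitochondria, and most amino acids thus have a pair of genes. Several cytosolic enzymes form a multi-synthetase complex held together by scaffold proteins. The enzymes fall into classes I and II, which differ in the fold of the catalytic domain. When amino acids run short, the factors ATF4 and CHOP (DDIT3) raise the transcription of many cytosolic synthetase genes.

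HEK293T, an established human embryonic kidney cell line, was transfected with a plasmid that codes for Stau155-FLAG, a FLAG-tagged isoform of Stau1, or with the empty vector. All cells received nocodazole, a drug that blocks microtubule polymerization, for 15 h at 50 ng/ml by the labels, while the study's methods give a longer time. The anti-FLAG antibody was used on both, which gave 3 Stau1 IPs and 3 control IPs, and the RNA of each was hybridized to 1 Illumina array. The plasmid-borne protein was thus the only bait, and the labels do not say whether the replicates came from separate transfections, so the p-values measure the spread between these arrays, which may be technical.

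The start regions of the genes are shown first because a sequence held there by many cytosolic genes was rare among the mitochondrial ones, which does not use the array. RefSeq windows from 250 bases before to 50 bases after the gene start were held for 33 of the targets, which stand for 32 genes. The core of the amino acid response element, TGATGNAA read on either strand, was found in 6 of 14 cytosolic genes (42.9%), in 1 of 14 mitochondrial genes (7.14%) and in 1 of the 2 genes that serve both compartments. Over all genes with a window, it was found in 1217 of 27305 (4.46%). The matched windows follow, 5′ to 3′ on the strand of the gene, with the 8 matched bases in capitals.
NARS: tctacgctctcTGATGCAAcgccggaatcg
TARS: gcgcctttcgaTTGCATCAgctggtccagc
AARS: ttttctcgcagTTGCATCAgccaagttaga
CARS: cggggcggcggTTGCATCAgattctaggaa
IARS: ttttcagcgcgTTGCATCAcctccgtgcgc
MARS: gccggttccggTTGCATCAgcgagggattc
GARS: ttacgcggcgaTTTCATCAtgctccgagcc
YARS2: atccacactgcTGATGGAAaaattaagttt
The 6 cytosolic genes share the same letters, TTGCATCA or its reverse complement, whereas GARS and the mitochondrial YARS2 match only through the free position. In build GRCh38.p14 the printed stretches of NARS (chr18:57621804-57621833), AARS (chr16:70289675-70289704), CARS (chr11:3057407-3057436), IARS (chr9:92293692-92293721) and YARS2 (chr12:32756076-32756105) lie on the minus strand. Those of TARS (chr5:33440956-33440985), MARS (chr12:57488053-57488082) and GARS (chr7:30594834-30594863) lie on the plus strand. A match of letters is a description of these windows and does not show that a factor binds there.

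The arrays had to be described before any group was compared. With detection defined as a detection p under 0.05, each array detected 11635 to 13054 targets, among them 41 or 42 of the 45 members. The median bead number was 41, and the number of arrays limits the precision. Signals are bead intensities, and differences are on the log2 scale after normalization, which understates the changes of dim targets. Over the 9884 targets detected on all 6 arrays, Stau1 IP 1 and Stau1 IP 3 correlated at 0.996, and their differences were past the bead noise for 19.1% of targets, where noise alone gives 5%. The same share was 42.8% to 46.2% between control IPs and 60.8% to 61.6% between Stau1 IP 2 and the other Stau1 IPs. Control IP 2 differed past the bead noise from Stau1 IPs 1 and 3 for 46.2% and 47.4% of targets, about as often as from the other control IPs. Stau1 IP 2 did so for 59.6%, 62.3% and 51.9% of targets against control IPs 1, 2 and 3, so that by this measure control IP 3 was clearly nearer to it than its own group, control IP 1 about as near and control IP 2 no nearer. By correlation, all 3 control IPs (0.954 to 0.977) were nearer to it than Stau1 IPs 1 and 3 (0.94 and 0.943). The groups of the arrays numbered 2 may have been exchanged, which these values do not settle. Both are given singly wherever the signals of a gene are printed. For other genes only log2 differences are given. The markers VIM, KRT8, KRT18, NEFL, NEFM and INA were detected on all 6 arrays and PAX2 on 1, as were CCNB1, PLK1, CDC20 and TOP2A of mitotic cells on all 6, while PTPRC of leukocytes, HBB of red cells and ALB of hepatocytes were detected on 0.

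STAU1 itself was read first, since the transfected plasmid codes for it. Its signal was 2499, 3246 and 2758 on control IPs 1, 2 and 3, and 2845, 1857 and 3130 on Stau1 IPs 1, 2 and 3. The lowest value came from Stau1 IP 2 and the highest from control IP 2, and by the labels the groups overlapped. The log2 difference by the labels was -0.18 (standard error 0.18, adjusted p = 0.877 from limma). With the arrays numbered 2 exchanged, every Stau1 value lay above every control value, both raw and normalized. The log2 difference of STAU1 was then 0.28 (standard error 0.15, adjusted p = 0.53 from limma). Since both fell short of the threshold, STAU1 does not settle the labels.

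Of the 45 members, 40 were detected on all 6 arrays, LOC654115 on 5 and LOC341112 on 2. IARS, LOC647337 and LOC652435 were detected on 0. IARS, the cytosolic isoleucine enzyme, nevertheless had a signal between 835 and 1652, so that it was bright and still missed the detection threshold, for a reason the values do not show. The 2 targets of the beta subunit of the cytosolic phenylalanine enzyme disagreed. FARSLB had a signal between 21521 and 37137 and FARSB one between 116 and 130, near the background.

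By the labels, no member was shown to differ between Stau1 IPs and control IPs. Over all 37879 targets, 0 of the 45 members passed the adjusted p of limma, and the whole array had 1 target that did, which was lower (0.00264%). Past the 2.5-fold threshold of the methods there were 0 members, and 1 higher target on the array (0.00264%). At an unadjusted p under 0.05, 0 members were higher and 5 were lower, where 3.64% of all targets were higher and 5.18% lower, 8.81% in all. Among targets detected on all 6 arrays, which suit the bright members better, these shares were 9.25% and 12.7%, so that the 5 of 45 lay near the background. The 5 were NARS, TARS and LARS of the cytosol and WARS2 and RARS2 of mitochondria. Total RNA of the cells was not analysed here, so that less of a transcript in the cells and less of it in the precipitate cannot be told apart, nor can fewer cells of a type and less RNA per cell.

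NARS, which charges the tRNA for asparagine, had the lowest p among the 45. Its signal was 4109, 4018 and 4235 on control IPs 1, 2 and 3, and 3078, 2942 and 3292 on Stau1 IPs 1, 2 and 3. All 3 Stau1 IPs lay below all 3 control IPs, and the arrays numbered 2 fell with their own labels. Normalized log2 levels averaged 12.10 ± 0.10 (SD, n = 3) in the control group, against 11.66 ± 0.07 (SD, n = 3) in the Stau1 group. The log2 difference of -0.44 (standard error 0.06) was larger than either SD but did not pass over all targets (adjusted p = 0.161 from limma).

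TARS, the threonine enzyme, had signals of 4341, 3898 and 4787 on the control IPs and of 3229, 2415 and 3451 on the Stau1 IPs. The groups were again apart, with the lowest value on Stau1 IP 2. Its log2 difference of -0.55 (standard error 0.16, adjusted p = 0.404 from limma) was the most negative among the 45. LARS, the leucine enzyme, had 1923, 2206 and 1795 on the control IPs and 1731, 1464 and 2029 on the Stau1 IPs. Its raw signals overlapped, and the groups were apart only after normalization, by a log2 difference of -0.23 (standard error 0.08, adjusted p = 0.534 from limma).

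The mitochondrial WARS2 and RARS2, which charge tRNAs for tryptophan and arginine, went the same way as these. WARS2 had signals of 515, 563 and 591 on the control IPs and of 492, 355 and 443 on the Stau1 IPs. RARS2 had 1581, 1358 and 1159 on the control IPs and 1089, 1048 and 1094 on the Stau1 IPs. In both, every control IP lay above every Stau1 IP, and in RARS2 the control IPs differed more among themselves than the Stau1 IPs did. The log2 differences were -0.32 for WARS2 (standard error 0.09, adjusted p = 0.379 from limma) and -0.35 for RARS2 (standard error 0.13, adjusted p = 0.537 from limma).

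Groups that did not overlap after normalization were found for 1 member in the higher direction and 6 in the lower, against 6.5% and 7.99% of all targets, 14.5% in all. Among the 9884 targets detected on all arrays, 953 were apart in the higher direction and 1361 in the lower. The 5 targets described above were among the 6. The single higher one was TARS2, the mitochondrial threonine enzyme, with signals of 539, 638 and 590 on the control IPs and of 656, 865 and 787 on the Stau1 IPs. By limma, its log2 difference was 0.29 (standard error 0.13, adjusted p = 0.646). TARS and TARS2 thus charge tRNAs with the same amino acid in different compartments and differed from the control IPs in opposite directions, neither past the adjusted p.

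**Figure D1:**
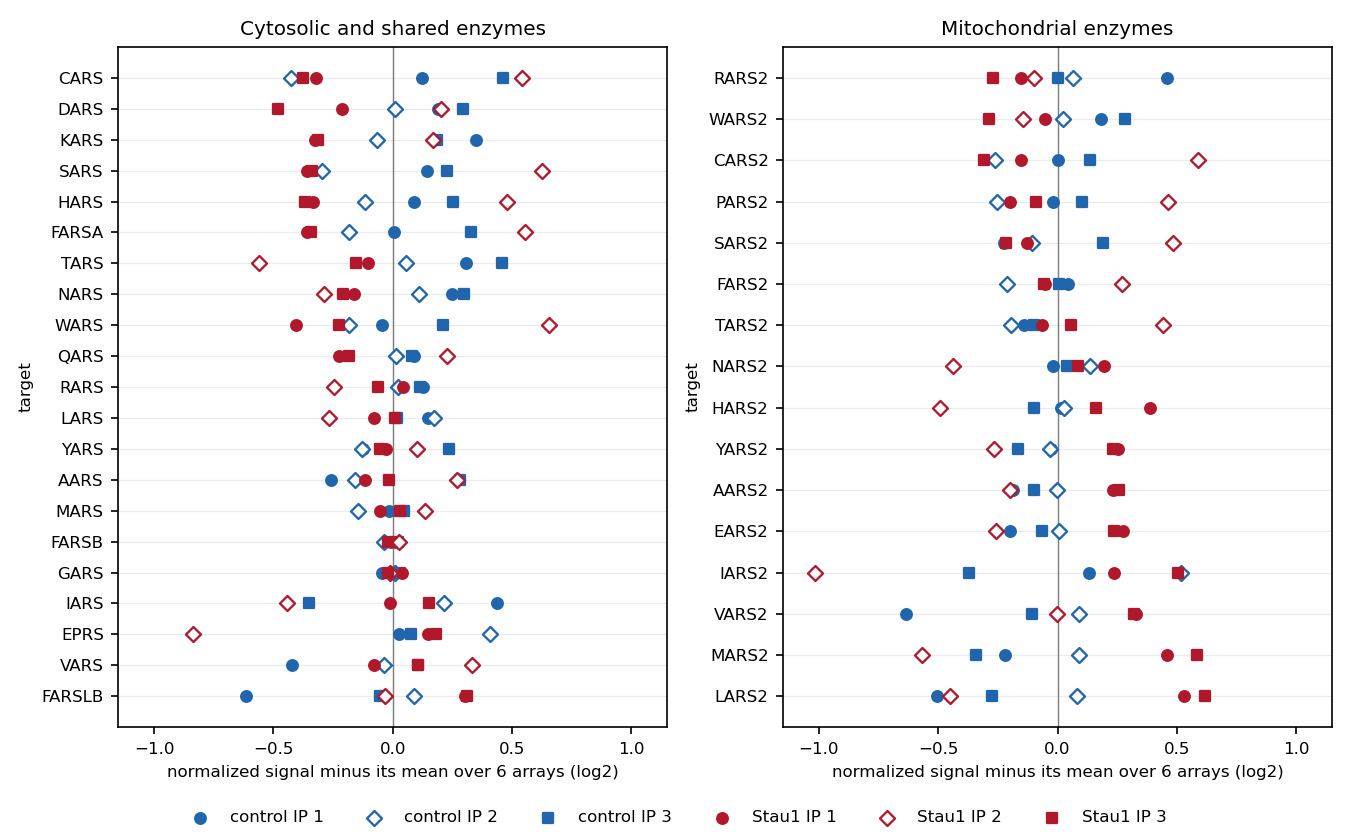
Normalized signal of each cytosolic or shared enzyme (left) and of mitochondrial enzymes (right) on the 6 arrays, as the log2 difference from the mean of its 6 arrays. Points are single arrays, with control IPs in blue, Stau1 IPs in red and the arrays numbered 2 as open diamonds. For LARS2, MARS2 and SARS the open red diamond lies among or beyond the blue points, and for NARS all red points lie to the left of all blue ones.

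The cytosolic and mitochondrial classes stood on opposite sides of 0 by the labels, but by less than the arrays of a group differed among themselves. The median log2 difference was -0.10 over the 19 cytosolic targets, with 12 below 0, and 0.11 over the 17 mitochondrial targets, with 12 above 0. The median was 0.002 over all targets and -0.003 over those detected on all arrays. On single arrays, the median level of the cytosolic targets was 0.09, -0.04 and 0.21 on control IPs 1, 2 and 3 and -0.11, 0.14 and -0.06 on Stau1 IPs 1, 2 and 3. That of the mitochondrial targets was -0.02, 0.02 and -0.06 on the control IPs and 0.19, -0.20 and 0.09 on the Stau1 IPs. Control IP 2 and Stau1 IP 2 therefore lay on the far side of their groups in both classes. The mitochondrial minus cytosolic difference between the groups was 0.21, and its SD between arrays within the groups was 0.26. The cytosolic median turned to 0.0276, 0.0096 and 0.0273 without control IP 3, Stau1 IP 1 or Stau1 IP 3, and to 0.0185 with Stau1 IPs 1 and 3 averaged, where the difference between the classes was 0.10. Over single arrays left out, that difference ran from 0.07 to 0.29.

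**Figure D2:**
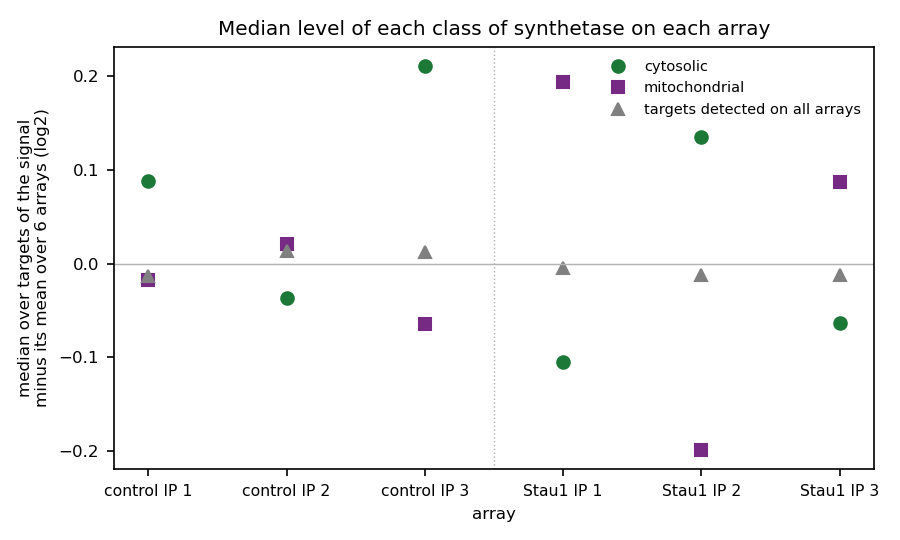
Median over targets of the normalized signal minus its mean over 6 arrays (log2) on each array, for the 19 cytosolic targets, the 17 mitochondrial targets and the 9884 targets detected on all arrays. The cytosolic median is highest on control IP 3 (0.21) and positive on Stau1 IP 2 (0.14), where the mitochondrial median is lowest (-0.20), while the median of the detected targets stays within 0.013 of 0 on all 6 arrays.

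Each array numbered 2 was next set against the other 4 arrays, as a description. Control IP 2 was nearer to the mean of Stau1 IPs 1 and 3 than to that of control IPs 1 and 3 for 29 of the 45 members (64.4%), where this held for 50% of all targets and 46.9% of the detected ones. For the cytosolic targets it was 15 of 19 and for the mitochondrial targets 8 of 17. Stau1 IP 2 was nearer to the mean of control IPs 1 and 3 for 35 of the 45 members (77.8%), against 53.8% of all targets and 60% of the detected ones. For the cytosolic targets it was 14 of 19 and for the mitochondrial targets 12 of 17.

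LARS2, the mitochondrial leucine enzyme, shows the place of Stau1 IP 2 plainly. Its signal was 646, 1206 and 814 on control IPs 1, 2 and 3, and 1565, 656 and 1834 on Stau1 IPs 1, 2 and 3. Stau1 IP 2 fell among the lowest values and control IP 2 was the highest control. After normalization, Stau1 IP 2 lay 1.03 below the other Stau1 IPs (the log2 difference was -1.03) and control IP 2 lay 0.47 above the other control IPs. MARS2, the mitochondrial methionine enzyme, had signals of 305, 494 and 290 on the control IPs and of 608, 212 and 734 on the Stau1 IPs, with Stau1 IP 2 again below its group and control IP 2 above its own. SARS, the cytosolic serine enzyme, ran the other way, with 3211, 2564 and 3425 on the control IPs and 2291, 4925 and 2568 on the Stau1 IPs. There Stau1 IP 2 gave the highest value of all 6 arrays. After normalization, control IP 2 was nearer to Stau1 IPs 1 and 3 in SARS. In LARS2 and MARS2 it stayed nearer to control IPs 1 and 3.

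Leaving out the arrays numbered 2 leaves 2 control IPs and 2 Stau1 IPs. The normalization over all 6 arrays was kept, with control IP 2 as its reference. In this setting, 9 of the 45 members passed the adjusted p of limma. All 3 that were higher in the Stau1 IPs were mitochondrial, LARS2, MARS2 and AARS2, and of the 6 that were lower 5 were cytosolic, HARS, NARS, QARS, SARS and TARS, and KARS serves both compartments. Over all targets, 3.19% were higher and 2.13% lower at this threshold, and 9.39% and 7.15% among those detected on all arrays. At an unadjusted p under 0.05, 9 members were higher and 13 lower, where 9.09% and 8.18% of all targets and 23.7% and 24.1% of the detected ones were, so that against detected targets these counts were near the background. The 2 groups did not overlap for 12 members in the higher direction and 20 in the lower (22.3% and 23.8% of all targets). Among the 9884 targets detected on all arrays, 3203 and 3520 did not overlap. The 2.5-fold threshold was passed by 0 members (0.61% and 0.037% of all targets). With the arrays numbered 2 exchanged instead of left out, 0 of the 45 members passed the adjusted p. The arrays were left out because earlier results of the same values had set them apart, so the p-values without them are not free of that choice. They also rest on Stau1 IPs 1 and 3, which differed little beyond bead noise. With those 2 arrays averaged and counted as 1 replicate, 0 of the 45 members and 0 of all targets passed the adjusted p of limma, the lowest adjusted p of a member was 0.202, and 15 members had an unadjusted p under 0.05, against 10.6% of all targets and 32.1% of those detected on all arrays.

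Among the mitochondrial enzymes, LARS2 had the largest difference in this setting, 0.96 (standard error 0.09, adjusted p = 0.023 from limma), which is 1.95-fold. MARS2 followed with 0.80 (standard error 0.07, adjusted p = 0.0209 from limma) and AARS2, the alanine enzyme, with 0.39 (standard error 0.05, adjusted p = 0.0337 from limma). The signal of AARS2 was 489, 697 and 556 on the control IPs and 776, 448 and 865 on the Stau1 IPs, again with Stau1 IP 2 lowest. VARS2, the valine enzyme, had 903, 1803 and 1412 on the control IPs and 2004, 1547 and 2199 on the Stau1 IPs. Its log2 difference of 0.70 without the arrays numbered 2 did not pass (adjusted p = 0.177 from limma), and control IP 1 was far below control IP 3. IARS2, the isoleucine enzyme, had 2834, 4090 and 1988 on the control IPs and 3111, 1220 and 4137 on the Stau1 IPs, and a log2 difference of -0.19 by the labels and 0.49 without the arrays numbered 2. Neither passed (adjusted p = 0.957 and 0.378 from limma).

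Not all mitochondrial enzymes were higher in this setting. The log2 differences of the 17 ran from -0.44 for RARS2 to 0.96 for LARS2, with 10 above 0 and a median of 0.13. WARS2 was at -0.40 and NARS2, the asparagine enzyme, at 0.13 after -0.11 by the labels. By class of catalytic fold, the 9 mitochondrial enzymes of class I had a median of 0.39 and the 8 of class II one of 0.02. LARS2, MARS2, VARS2, IARS2, EARS2 and YARS2 are of class I, as are WARS2, RARS2 and CARS2, which were below 0.

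Among the cytosolic enzymes, 15 of 19 were below 0 without the arrays numbered 2, with a median of -0.13. Those that passed were SARS (-0.54, standard error 0.04, adjusted p = 0.0194 from limma), HARS, which charges the tRNA for histidine (-0.52, standard error 0.07, adjusted p = 0.0391 from limma), TARS (-0.51, standard error 0.06, adjusted p = 0.0368 from limma), NARS (-0.46, standard error 0.04, adjusted p = 0.0212 from limma) and QARS, the glutamine enzyme (-0.29, standard error 0.04, adjusted p = 0.0355 from limma). KARS, the lysine enzyme that serves both compartments, had -0.59 (standard error 0.07, adjusted p = 0.0306 from limma). HARS, QARS, SARS and KARS were chosen for naming after their values had been seen. Of the 6, only NARS and TARS had Stau1 IP 2 on the side of the other Stau1 IPs. HARS, for example, had signals of 4411, 4098 and 4911 on the control IPs and of 3260, 6282 and 3519 on the Stau1 IPs.

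The remaining cytosolic targets were more mixed. DARS, the aspartate enzyme, had signals of 9313, 8503 and 9578 on the control IPs and of 6549, 9946 and 6074 on the Stau1 IPs, and a log2 difference of -0.33 by the labels and -0.59 without the arrays numbered 2 (adjusted p = 0.733 and 0.0793 from limma). WARS, the tryptophan enzyme, had 3208, 3175 and 3872 on the control IPs and 2532, 5765 and 3168 on the Stau1 IPs, and its log2 difference was 0.01 by the labels and -0.40 without the arrays numbered 2. EPRS, which charges tRNAs for both glutamate and proline, had 2334, 3407 and 2468 on the control IPs and 2639, 1252 and 2984 on the Stau1 IPs, with log2 differences of -0.34 and 0.11. The raw signal of Stau1 IP 2 was the highest in DARS and WARS and the lowest in EPRS (after normalization DARS was highest on control IP 3), and the difference had another sign or size once the arrays numbered 2 were left out.

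FARSLB, the beta subunit of the phenylalanine enzyme, was the cytosolic target with the highest difference, 0.39 by the labels (standard error 0.21, adjusted p = 0.711 from limma) and 0.64 without the arrays numbered 2 (adjusted p = 0.233 from limma). Its signal was 21521, 34896 and 28692 on the control IPs and 32714, 32987 and 37137 on the Stau1 IPs. FARSA, the alpha subunit of the same enzyme, had a log2 difference of -0.10 by the labels and -0.52 without the arrays numbered 2. By these 2 targets the subunits of 1 enzyme lay on opposite sides of 0, both short of the adjusted p. FARSB, the other target of the beta subunit and near the background, had 0.01 and -0.01. VARS, the valine enzyme, had 682, 1094 and 1082 on the control IPs and 996, 1278 and 1253 on the Stau1 IPs, and log2 differences of 0.24 and 0.17. AARS (0.09 and -0.08) and MARS (0.07 and -0.03), the cytosolic alanine and methionine enzymes, stayed near 0 in both settings. GARS, the glycine enzyme of both compartments, varied little, with an SD of 0.04 in the control IPs and 0.03 in the Stau1 IPs and a log2 difference of 0.01 by the labels.

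**Figure D3:**
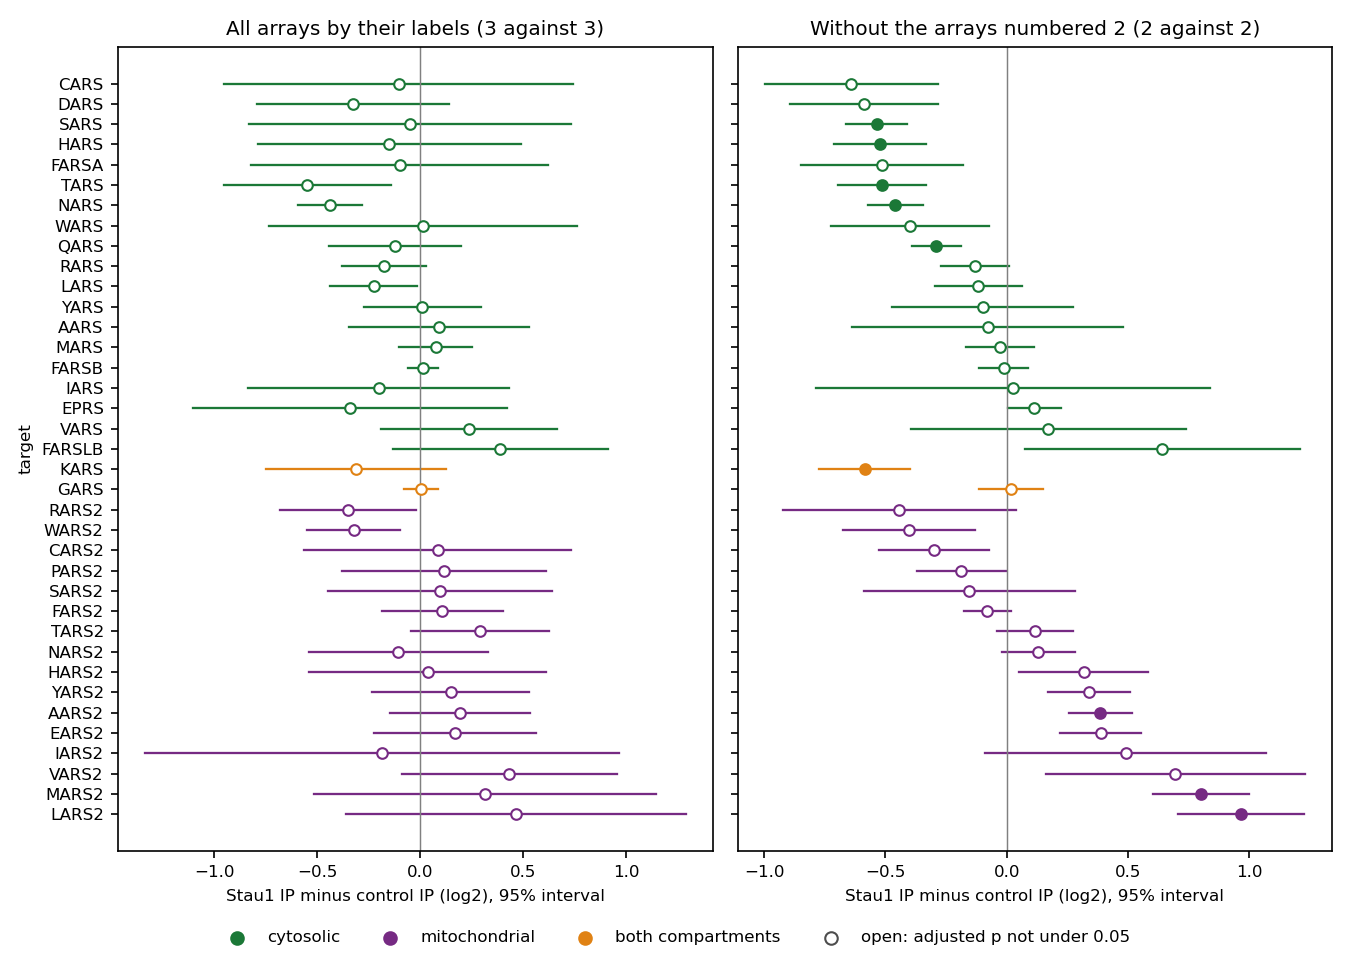
Log2 difference of Stau1 IP minus control IP with its 95% confidence interval from limma for synthetase targets of the cytosol, of mitochondria and of both, with all arrays by their labels (left, 3 against 3) and without the arrays numbered 2 (right, 2 against 2). Filled points passed the adjusted p over all targets, 0 on the left and 9 on the right, and colours give the compartment.

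The classes were then compared gene by gene through 15 pairs of a cytosolic and a mitochondrial enzyme for the same amino acid. EPRS was paired with EARS2, and FARSA, not FARSLB, with FARS2. The mitochondrial partner had the higher log2 difference in 13 of 15 pairs by the labels, with a median gap of 0.19, and in 13 of 15 without the arrays numbered 2, with a median gap of 0.46. Both settings share arrays, and the pairs are not replicates of a condition. The exceptions were the arginine pair RARS and RARS2 and the tryptophan pair WARS and WARS2 in both settings. FARSLB had 0.39 by the labels and 0.64 without the arrays numbered 2. In place of FARSA it would lie above FARS2 (0.11 and -0.08) in both settings. The isoleucine pair had a gap of only 0.0155 by the labels, and its IARS was detected on 0 arrays. For leucine, LARS had -0.12 and LARS2 0.96 without the arrays numbered 2, a gap of 1.08. For histidine, HARS had -0.52 and HARS2 0.32, a gap of 0.84. HARS and HARS2 are neighbours in the genome, on opposite strands with 84 bases between them in RefSeq. The mitochondrial partner was above 0 and the cytosolic one below 0 in 7 pairs by the labels and in 7 without the arrays numbered 2, and only the histidine, leucine and threonine pairs, 3 in number, were among both.

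**Figure D4:**
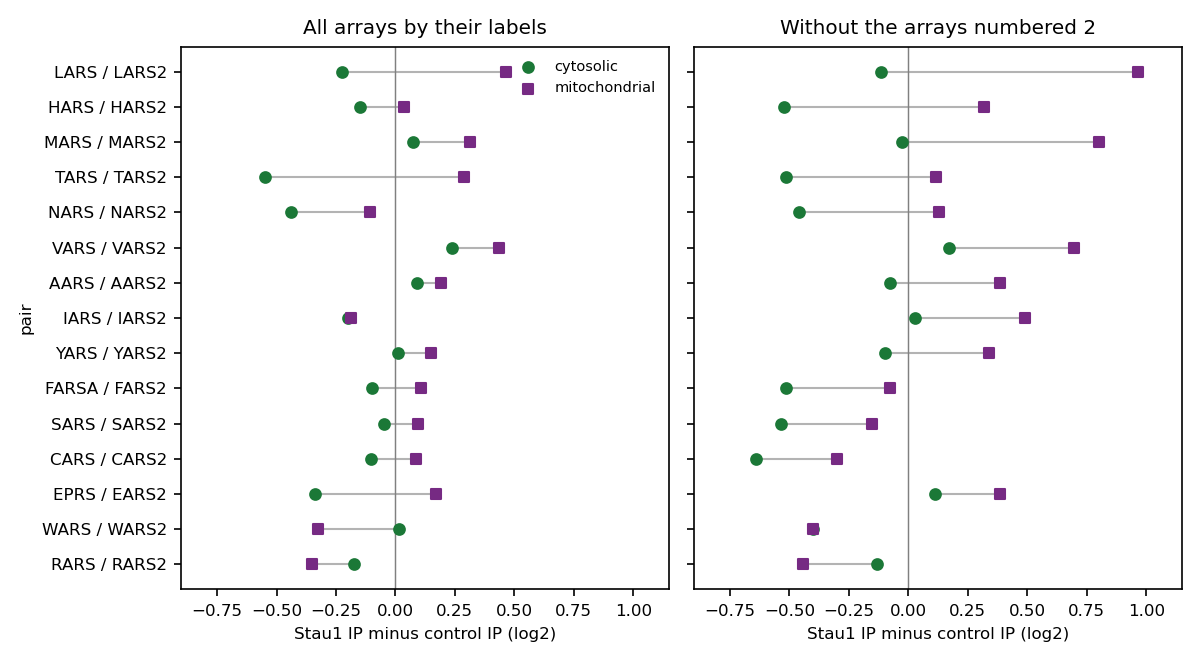
Log2 difference of Stau1 IP minus control IP for the cytosolic (circle) and mitochondrial (square) enzyme of 15 pairs, by the labels (left) and without the arrays numbered 2 (right), with a line joining the partners. The square lies to the right of the circle in 13 of 15 pairs in each panel, and the leucine pair has the longest line on the right (1.08).

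The signal level moves with the class, so that the comparison was also made among targets of like level. Of the 9884 detected targets, the brightest of 4 equal bins held 15 cytosolic and 4 mitochondrial members. Without the arrays numbered 2, its cytosolic members had a median of -0.29 with 13 of 15 below 0, its mitochondrial members had a median of 0.41 with 0 below 0, and all 2471 targets of the bin had a median of -0.05 with 54.1% below 0. In the bin below it, the 11 mitochondrial members had a median of -0.08 and the 2 cytosolic ones one of -0.23. The classes thus lay on opposite sides of 0 in the brightest bin, while in the next both medians were below 0.

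The enzymes of the multi-synthetase complex lay below the other cytosolic enzymes by the labels and above them without the arrays numbered 2. Its 8 enzymes, DARS, EPRS, IARS, KARS, LARS, MARS, QARS and RARS, had a median log2 difference of -0.21 by the labels, with 7 below 0, and of -0.12 without the arrays numbered 2. The 12 cytosolic targets outside it had -0.02 and -0.43. The scaffold AIMP2 had signals of 7096, 7413 and 8288 on the control IPs and of 7437, 8621 and 7473 on the Stau1 IPs. Its log2 difference was 0.03 by the labels. EEF1E1, another scaffold, was detected on 0 arrays, at a signal between 388 and 1098. It had -0.51 by the labels (adjusted p = 0.632 from limma) and -0.28 without the arrays numbered 2. By class of catalytic fold, the 9 cytosolic targets of class II had a median of -0.51 and the 10 of class I one of -0.11 without the arrays numbered 2, against -0.10 and -0.11 by the labels.

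The cytosolic genes with and without the promoter sequence shown above had similar median differences. Without the arrays numbered 2, the 6 genes with the sequence had a median of -0.27 and the 8 without it one of -0.34. The 6 carriers differed widely. CARS, the cysteine enzyme, had the most negative difference of the 45 members in this setting, -0.64 (adjusted p = 0.0927 from limma), NARS and TARS were lower past the adjusted p, and AARS, IARS and MARS lay between -0.08 and 0.03. The difference is one of precipitated RNA and the sequence one of the gene start, so no relation between them is drawn.

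Of 28 other genes of tRNA charging and its use, chosen as a list, 27 were on the array. By the labels 0 of them passed the adjusted p, and at an unadjusted p under 0.05 none was higher and 4 were lower, near the 12.7% of detected targets that were lower (5.18% of all targets). These were TRNT1, which adds the CCA end to tRNAs (-0.40, adjusted p = 0.322 from limma), TRMT5, a tRNA methyltransferase (-0.60, adjusted p = 0.337 from limma), EEF1B2, an exchange factor of the elongation factor that delivers charged tRNAs (-0.35, adjusted p = 0.335 from limma), and GFM1, a mitochondrial elongation factor (-0.34, adjusted p = 0.466 from limma). TRMT5 was detected on 2 arrays, although its signal was between 5342 and 12303. TRNT1 was detected on 4, at a signal between 138 and 226. The median of the list was 0.02, and that of all targets 0.002.

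Without the arrays numbered 2, 5 of the 27 were higher past the adjusted p and 2 were lower, where 3.19% and 2.13% of all targets and 9.39% and 7.15% of the detected ones were. GATC, a subunit of the mitochondrial enzyme that corrects glutamate on the glutamine tRNA, had signals of 325, 559 and 279 on the control IPs and of 894, 244 and 999 on the Stau1 IPs, with Stau1 IP 2 lowest as in MARS2, and a log2 difference of 1.24. The others that were higher were YRDC and GTPBP3, which modify tRNAs (0.59 and 0.65), and the elongation factor subunits EEF1A1 and EEF1G (0.30 and 0.81). EEF1D, another subunit of that factor (-0.75), and DTD1, which removes amino acids of the wrong hand from tRNAs (-0.53), were lower. Subunits of the same elongation factor therefore lay on both sides of 0. All 7 were chosen for naming after their values had been seen. In all 7, Stau1 IP 2 lay nearer to control IPs 1 and 3 than to the other Stau1 IPs. Of these, GTPBP3 was detected on 4 arrays and EEF1D on 5.

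Of 9 genes of the amino acid response, 0 passed by the labels. PSAT1, an enzyme of serine synthesis, was the only one at an unadjusted p under 0.05 (-0.29, adjusted p = 0.392 from limma). At this threshold 5.18% of all targets and 12.7% of the detected ones were lower. PSAT1 was detected on 0 arrays, at a signal between 1357 and 2038. ATF4, the factor of the response, had signals of 11176, 11104 and 10317 on the control IPs and of 10162, 9771 and 11212 on the Stau1 IPs, with a log2 difference of -0.06. By the labels, the largest differences of the list were above 0. TRIB3, a pseudokinase induced in the response, had 0.61 by the labels and 1.06 without the arrays numbered 2 (adjusted p = 0.718 and 0.107 from limma), and EIF2AK4, the kinase that senses uncharged tRNA, had 0.34 and 0.54 (adjusted p = 0.59 and 0.0955 from limma). Over the 9 genes the median was 0.03 by the labels, with 5 above 0. The ATF4 target DDIT3 had -0.10 by the labels and -0.68 without the arrays numbered 2 (adjusted p = 0.973 and 0.0446 from limma). Its signal was 704, 541 and 875 on the control IPs and 537, 1032 and 525 on the Stau1 IPs. In DDIT3 and TRIB3, Stau1 IP 2 lay nearer to control IPs 1 and 3, but not in EIF2AK4. Only DDIT3 of the 9 passed without the arrays numbered 2, where 2.13% of all targets and 7.15% of the detected ones were lower.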

How the data were processed

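RNA of 3 control IPs and 3 Stau1 IPs was read on 6 Illumina HumanWG-6 arrays. The authors deposited the signal intensity of each target, neither background-subtracted nor normalized, with the standard error between beads (an intensity), the bead number and the detection p-value. Probes of a target had been combined by the authors.

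In R 4.3.3, the negative-control level, read as the median over the 200 targets whose detection p lay nearest to 0.5, was subtracted. A variance stabilizing transformation was fitted to the bead SD over 500 bins without the lowest 33.3% of signals, and arrays were mapped on control IP 2 by a monotone spline with 10 knots (mgcv 1.9.3). All targets were tested with lmFit and eBayes of limma 3.58.1, with Benjamini-Hochberg adjustment at 0.05. Over the whole array, a fold above 2.5 with an unadjusted p under 0.05 was also counted, as in the methods. The steps were tested on simulated data. Plots were drawn with Python 3.11.15, pandas 2.3.3 and matplotlib 3.10.9.

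The members, the lists and the setting without the arrays numbered 2 were chosen with earlier results of these data known. Named genes were STAU1, the members and pathway genes with an unadjusted p under 0.05, and the scaffolds. Also named were the 5 highest and 5 lowest of each class among those detected on at least 3 arrays. Any other gene was named after its values had been seen. For 1 mitochondrial member, counted in its class, the values are not reported here. Promoter windows came from RefSeq GRCh38.p14. The alternatives were other transformations, normalizations, filters, tests and groupings, and leaving out each array. The averaging of Stau1 IPs 1 and 3 and the setting without the arrays numbered 2 under other normalizations were added after seeing the data. Protein sequences were not used here.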

Additional observations from a re-analysis of the deposited data

How the results depend on the processing

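By the labels, 1 of all targets was enriched and 0 were depleted past the 2.5-fold threshold. Members passed the adjusted p only without the arrays numbered 2, and 0 passed with these arrays exchanged. After the exchange, NARS had a log2 difference of -0.17 and TARS one of -0.14 (adjusted p = 0.793 and 0.902 from limma). Enriched and depleted targets were 3 and 6 under neqc, 5 and 10 at a fold of 2, and 154 and 7 with the arrays numbered 2 exchanged. Without them they were 231 and 14. The enriched count was 5 with log2 of the signal plus 50, 2 with the trend of eBayes, and 0 with Stau1 IPs 1 and 3 averaged. Members at an unadjusted p under 0.05 were 1 higher and 1 lower with median centring, 1 and 2 with the trend, 8 and 11 after the exchange (mitochondrial median 0.28), and 9 and 13 without the arrays numbered 2, where 9 passed the adjusted p. Only the lower count moved, to 3, with targets detected on all arrays and with the methods' t-test. The cause was not tested.

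The deviations of same-numbered arrays correlated at -0.46, -0.77 and -0.39. An exchange of the arrays numbered 2 would itself give negative values, so they do not tell whether the numbers pair the arrays. The replicate block left 0 targets enriched.

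Leaving out single arrays gave 0 to 100 enriched and 0 to 8 depleted targets, 0 to 7 members higher and 3 to 9 lower, 0 past the adjusted p. The upper ends, 100, 8, 7 and 9, came without Stau1 IP 2. The cytosolic median ran from -0.195 to 0.0276 (above 0 without control IP 3, Stau1 IP 1 or Stau1 IP 3), the mitochondrial one from 0.06 to 0.17 and their difference from 0.07 to 0.29.

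Signs turned for WARS (-0.0309) and AIMP2 (-0.0626) with median centring. After the exchange they turned for STAU1 (0.28), AARS (-0.19), EPRS (0.49), LARS (0.0692), MARS (-0.11), VARS (-0.0081), WARS (-0.55), IARS2 (0.84), NARS2 (0.28), TARS2 (-0.13), AIMP2 (-0.10) and GFM1 (0.12). Without the arrays numbered 2 they turned for STAU1 (0.0803), AARS (-0.0775), EPRS (0.11), MARS (-0.0284), WARS (-0.40), IARS2 (0.49), NARS2 (0.13) and AIMP2 (-0.0487). Leaving out single arrays turned the sign of AARS (-0.0205 to 0.26), WARS (-0.31 to 0.22), AIMP2 (-0.0157 to 0.12), IARS2 (-0.48 to 0.28), STAU1 (-0.28 to 0.0245) and NARS2 (-0.23 to 0.0876). Of 489 values of named genes, 450 kept their direction and side of the threshold. Those under the filters, the t-test, the trend and the replicate block could not change direction, since the log2 differences stayed the same. Leaving out the background step gave the values of the main setting again. The 450 are therefore not a measure of how firm the results are.

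Without the arrays numbered 2, the 5 cytosolic targets lower and 3 mitochondrial higher past the adjusted p became 2 and 0 under neqc (NARS and SARS), 6 and 2 with log2 of the signal plus 50, 6 and 3 with quantile normalization, and 6 and 4 with median centring. Over all targets, 807 were lower and 1209 higher, against 89 and 160, 1379 and 1873, 1273 and 1433, and 760 and 1678 in the same order.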
